A study of Drosophila melanogaster with 22 samples.

Results

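The Imd pathway is one of the NF-κB pathways by which flies answer bacteria. Peptidoglycan from the bacterial wall is bound by peptidoglycan recognition proteins (PGRPs), of which PGRP-LC is the main membrane receptor. The adaptor Imd then recruits the caspase Dredd and the kinase Tak1, and the NF-κB factor Relish, encoded by Rel, is cleaved and moves to the nucleus to switch on genes of antibacterial peptides. Other PGRPs tune this signal: PGRP-LB is a secreted amidase that degrades peptidoglycan, PGRP-LF is a membrane protein that restrains PGRP-LC, and PGRP-LA is a relative that does not itself bind peptidoglycan.

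The genes described here were the 8 named by this rule: the PGRP-L genes PGRP-LA, PGRP-LB, PGRP-LC and PGRP-LF with imd, Dredd, Tak1 and Rel, taken from every probe set annotated with that single gene symbol. Of these 8, 6 had such a probe set, 1 each, out of 11982 genes with a single symbol in the series. PGRP-LC and Tak1 had none and were not analysed here. All 6 lay far over the floor used against dim probe sets (an intensity of 16 on at least 2 arrays) and were among the 5961 genes tested. The probe set of PGRP-LB carries the suffix that Affymetrix gives to sets whose probes can match transcripts of more than 1 gene, although its annotation names PGRP-LB alone.

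Expression was measured on 22 Affymetrix Drosophila arrays in S2 cells, a haemocyte-like (blood cell-like) line of embryonic origin. The study asked how transcription responds when subunits of the Cdk8 module are lost, the part of the coactivator complex Mediator that holds a kinase. Cultures received 20 µg of double-stranded RNA (dsRNA), which directs the destruction of matching transcripts, and RNA was taken 72 h later. For every array the labels also list the same number of cells, the same serum-free volume and 10% serum. Cdk8 dsRNA had 2 arrays, with 4 each for CycC (Cyclin C), Med12 (the gene kto) and Med13 (the gene skd) dsRNA. The 8 control arrays, 4 with GFP dsRNA and 4 with Luc (luciferase) dsRNA, had dsRNA of genes that flies lack. All groups therefore carried a dsRNA, and none had a label naming bacteria or peptidoglycan as a stimulus. Nothing in the labels states that replicate arrays were grown as separate cultures, and the p-values therefore reflect only the spread among these arrays, which may be technical.

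The targeted transcripts stood at 14.4% of the controls for Cdk8, 3.56% for CycC and 9.98% for kto, each under its own dsRNA. The transcript of skd stood at 80.6% under Med13 dsRNA, and where on skd its dsRNA lies is not stated in the labels. Replicate arrays correlated at 0.996 or more. Of 10 haemocyte genes listed to check the cell line, 9 were over the floor, and none of the 5 annotated fat body genes was. The exception among the haemocyte genes was the phagocytosis receptor gene NimC1, which was named after its value was seen and reached at most 5.04. The summed intensity of the haemocyte list was lower on the Med12 arrays (22540 to 23142) and the Med13 arrays (23098 to 26455) than on the controls (26696 to 29192), with the Cdk8 arrays at 27736 to 28557 and the CycC arrays at 27006 to 27605. In that list 7 of the 9 fell under Med12 dsRNA and 6 under Med13 dsRNA, where 15.5% and 11.2% of all genes tested were called lower (the test is given below). Among them Sr-CI, a scavenger receptor gene, had log2 differences of -2.32 and -2.57. Also counted were NimC4 and He, the latter named after its values were seen. Their means were log2 3.90 and 3.40 under Med12 dsRNA and 4.07 and 3.67 under Med13 dsRNA, near or below the floor. The controls stood at log2 6.67 and 6.28, so the filter kept these genes where they were high. Their falls therefore add little to the counts, and the sizes are uncertain. The peroxidasin gene Pxn rose under Cdk8 and CycC dsRNA (1.15 and 1.27) and fell under Med12 and Med13 dsRNA (-0.92 and -1.25), a split by the same groups as in PGRP-LF, PGRP-LA and Rel below, in the opposite sense. The list as a whole did not rise with it: 2 of the 9 rose and 2 fell under Cdk8 dsRNA, and 1 rose and 3 fell under CycC dsRNA. Of all genes, 10.6% rose and 8.07% fell under Cdk8 dsRNA, and 13.4% and 10.9% under CycC dsRNA. The receptor gene eater fell in all 4 knockdowns, with log2 differences of -0.51 (Cdk8), -0.59 (CycC), -1.07 (Med12) and -0.87 (Med13). Of the lists for other cell types, 4 more genes were over the floor. The germline gene bam rose 5.67-fold under Cdk8 dsRNA and 4.29-fold under CycC dsRNA and stood at -0.17 and -0.22 on the log2 scale under Med12 and Med13 dsRNA. In the controls and under Med12 and Med13 dsRNA its means were log2 3.48, 3.31 and 3.25, below the floor of log2 4. The folds of bam are therefore taken against a value below the floor. The genes vas and osk of the germline list, named after their values were seen, were below the floor. The crystal cell gene PPO1 was 0.528-fold in the Med12 and Med13 groups against the Cdk8 and CycC groups, the lamellocyte gene PPO3 fell in all 4 knockdowns, by 0.20 to 0.48, and the neuronal gene elav rose under Med12 dsRNA by 0.29. The part of these markers in the results below was not tested. In a bulk culture, fewer cells of a kind and less RNA per cell cannot be told apart.

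The knockdowns moved PGRP-LF, PGRP-LA and Rel in opposite directions: each fell under Cdk8 and CycC dsRNA and rose under Med12 and Med13 dsRNA. The falls of Rel were small and were not called against GFP alone. PGRP-LB rose under Med12 and Med13 dsRNA, and also, by less and not against each control alone, under Cdk8 dsRNA. The adaptor gene imd and the caspase gene Dredd passed the test in none of the 4 knockdowns. A gene is said to have risen or fallen only where its Benjamini-Hochberg adjusted p in limma, over all 5961 genes, was under 0.05. The 4 comparisons share the 8 control arrays, so their values are not independent of one another.

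**Figure D1:**
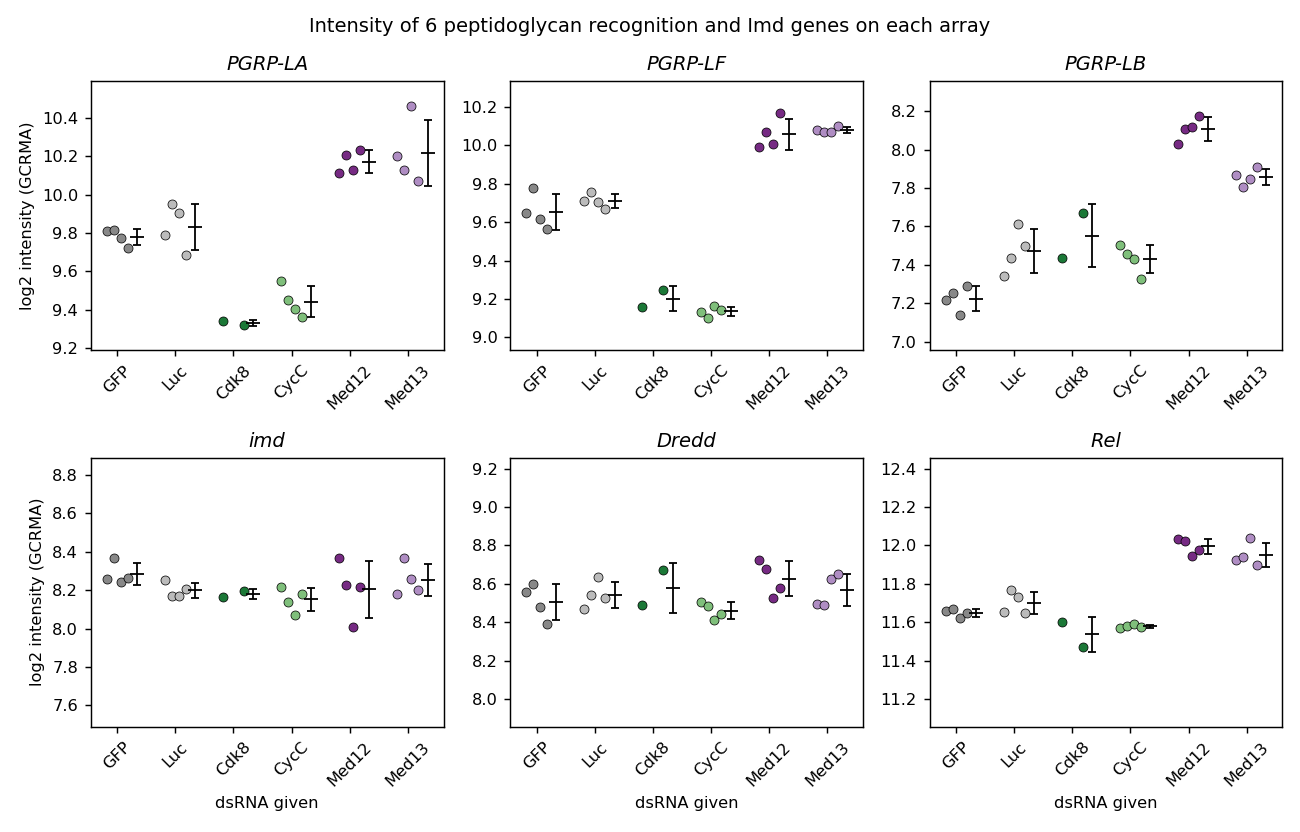
Each point is the log2 intensity of 1 array, grouped on the x axis by the dsRNA given, and the bar beside each group is the mean with its SD (n = 2 for Cdk8, 4 for the other groups). All panels span the same width on the log2 axis. The Med12 and Med13 points of PGRP-LF lie above all 8 control points and the Cdk8 and CycC points below them, while the points of imd and Dredd overlap across groups.

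PGRP-LF, the receptor gene whose product holds the pathway back (probe set 1633145_at), split the arrays into 3 levels. With GFP dsRNA the 4 arrays read intensities of 803, 879, 786 and 757, and with Luc dsRNA 836, 866, 835 and 813. The Cdk8 arrays read 571 and 608, and the CycC arrays 562, 549, 573 and 565. All 6 of these lay below every control. The Med12 arrays read 1017, 1075, 1027 and 1150, and the Med13 arrays 1082, 1074, 1076 and 1098, and these 8 lay above every control. The log2 difference from the controls was -0.48 ± 0.05 under Cdk8 dsRNA (SE, n = 2 against 8), which is 71.7% of the control level (limma adjusted p = 5.23e-07). Under CycC dsRNA it was -0.55 ± 0.04, or 68.5% of the controls (limma adjusted p = 1.04e-09). Under Med12 dsRNA it was 0.38 ± 0.04, a 1.30-fold rise (limma adjusted p = 1.27e-07), and under Med13 dsRNA 0.40 ± 0.04, a 1.32-fold rise (limma adjusted p = 7.95e-08). All 4 calls were kept in every alternative tried, the control groups taken singly included.

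PGRP-LA, the related gene 2 places along from PGRP-LF on chromosome arm 3L (probe set 1625486_a_at), followed the same order of groups. Its controls read 897, 901, 875 and 845 with GFP dsRNA and 884, 989, 957 and 823 with Luc dsRNA. Cdk8 dsRNA gave 649 and 640, and CycC dsRNA gave 751, 701, 677 and 659. Every one of these 6 arrays was below the lowest control. Med12 dsRNA gave 1106, 1183, 1118 and 1204, and Med13 dsRNA gave 1177, 1118, 1410 and 1075. All 8 were above the highest control, with the Med13 array at 1410 apart from the other 3 of its group. The log2 difference was -0.47 ± 0.08 under Cdk8 dsRNA (limma adjusted p = 0.000143) and -0.36 ± 0.06 under CycC dsRNA (limma adjusted p = 0.000121), or 72.0% and 77.8% of the controls. PGRP-LA rose 1.29-fold under Med12 dsRNA (0.36 ± 0.06, limma adjusted p = 5.61e-05) and 1.33-fold under Med13 dsRNA (0.41 ± 0.06, limma adjusted p = 2.04e-05). Without the third Med13 array its difference under Med13 dsRNA was 0.33, still past the threshold.

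PGRP-LA, PGRP-LC and PGRP-LF lie in a row on 3L in RefSeq's gene order (Release 6), used here for the order alone since no source used here gives the build behind the array annotation. The genes next to this row were looked up for their place after the members' values were known. UGP, which encodes a UDP-glucose pyrophosphorylase and follows PGRP-LF, had log2 differences between -0.09 and 0.01 in the 4 knockdowns, with limma adjusted p-values of 0.374 to 0.888. GluRIB, a glutamate receptor gene on the side of PGRP-LA, was below the floor. PGRP-LB and Rel lie on 3R, Dredd on X and imd on 2R. Next to Rel, Nmdmc, a folate enzyme gene, rose under Med12 and Med13 dsRNA by 0.22 and 0.18 and was higher in the Med12 and Med13 groups than in the Cdk8 and CycC groups by 0.30 (limma adjusted p = 2.51e-06), and Mst85C on the other side was higher there by 0.16 (limma adjusted p = 0.000818). CG17230, next to PGRP-LB, rose under Med12 dsRNA by 0.25 and under Med13 dsRNA by 0.17. GstE9, a glutathione transferase gene next to imd, fell in all 4 knockdowns, by 0.37 to 0.46, and Mybbp1A, next to Dredd, fell under Med12 dsRNA (-0.20). CG1812, next to Tak1 on X, fell under Cdk8 dsRNA (-0.29, limma adjusted p = 0.00723). It was higher in the Med12 and Med13 groups than in the Cdk8 and CycC groups by 0.28 (limma adjusted p = 0.000111). The remaining next-door genes that were measured, Dp1 beside imd and su(sable) beside Dredd, were not called in any of these comparisons.

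PGRP-LB, the amidase gene (probe set 1630741_s_at), was highest under Med12 dsRNA. Its Med12 arrays read 261, 276, 278 and 289 and its Med13 arrays 233, 224, 230 and 240. The GFP arrays read 149, 153, 141 and 156, and the Luc arrays 162, 173, 196 and 181. All 8 Med12 and Med13 arrays thus lay above every control, and all 4 Luc arrays lay above all 4 GFP arrays. The Cdk8 arrays, at 173 and 204, and the CycC arrays, at 181, 175, 173 and 161, overlapped with the Luc controls. PGRP-LB rose 1.69-fold under Med12 dsRNA (log2 difference 0.76 ± 0.05 SE, limma adjusted p = 1.78e-10) and 1.42-fold under Med13 dsRNA (0.51 ± 0.05, limma adjusted p = 1.09e-07). The difference of 0.20 ± 0.06 under Cdk8 dsRNA passed the test (limma adjusted p = 0.0314), but with Luc as the only control it was 0.08 (limma adjusted p = 0.512), and without the second Cdk8 array, the higher one, it was 0.09 (limma adjusted p = 0.566). Under CycC dsRNA the difference of 0.08 ± 0.05 did not pass (limma adjusted p = 0.26).

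The 2 control groups differed more in PGRP-LB than in any other member. GFP arrays were lower than Luc arrays by a log2 difference of -0.25 ± 0.06 (SE, n = 4 each), which had an unadjusted limma p of 0.000358 and ranked 10th of 5961 genes by p, but did not pass after adjustment (limma adjusted p = 0.192). Of the 5961 genes, 0.0336% passed in this comparison, and 3.27% had arrays that did not overlap between GFP and Luc. Against GFP alone, PGRP-LB rose under CycC dsRNA (0.21, limma adjusted p = 0.0162), and against Luc alone it stood at -0.04 (limma adjusted p = 0.68). Its rises under Med12 dsRNA (0.88 against GFP, 0.64 against Luc) and Med13 dsRNA (0.63 and 0.39) passed against either control.

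Rel, which encodes the NF-κB factor Relish (probe set 1627376_at), rose under Med12 and Med13 dsRNA and fell by little under the other knockdowns. Its controls read 3232, 3260, 3150 and 3209 with GFP dsRNA and 3219, 3489, 3395 and 3212 with Luc dsRNA. The Med12 arrays read 4199, 4160, 3950 and 4026, and the Med13 arrays 3881, 3926, 4213 and 3818, all above the highest control. The Cdk8 arrays read 3106 and 2844, and the CycC arrays 3045, 3066, 3084 and 3056, all below the lowest control, although the gap between the highest CycC array and the lowest GFP array was small. Rel rose 1.25-fold under Med12 dsRNA (log2 difference 0.32 ± 0.03 SE, limma adjusted p = 1.77e-07) and 1.21-fold under Med13 dsRNA (0.28 ± 0.03, limma adjusted p = 1.97e-06). It fell to 90.9% of the controls under Cdk8 dsRNA (-0.14 ± 0.04, limma adjusted p = 0.0303) and to 93.7% under CycC dsRNA (-0.09 ± 0.03, limma adjusted p = 0.0452). These falls did not hold throughout: against GFP alone the difference was -0.11 under Cdk8 dsRNA (limma adjusted p = 0.123) and -0.07 under CycC dsRNA (limma adjusted p = 0.242), and the CycC call was lost in 12 of 24 alternatives. Without the second Cdk8 array the Cdk8 difference was -0.07 (limma adjusted p = 0.464).

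**Figure D2:**
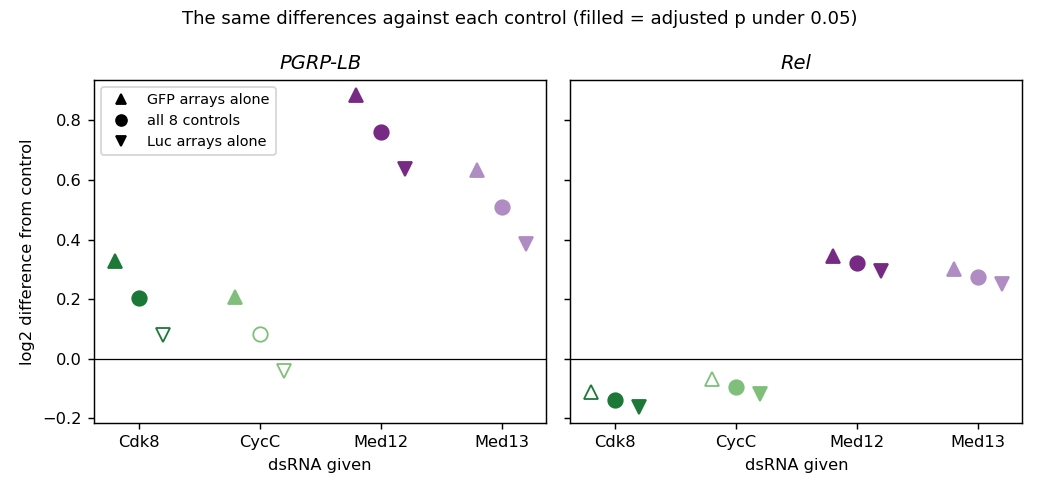
The log2 difference of PGRP-LB (left) and Rel (right) under each dsRNA is drawn against the GFP arrays alone, all 8 controls and the Luc arrays alone, with filled symbols where the limma adjusted p was under 0.05. The PGRP-LB symbols shift downwards from GFP to Luc in every knockdown and stay above 0 and filled under Med12 and Med13 dsRNA.

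Neither imd nor Dredd was called in any knockdown. For imd (probe set 1637332_at), which encodes the adaptor, the controls ran from 288 to 331 with a median of 304. The Cdk8 arrays read 287 and 294, and the CycC, Med12 and Med13 arrays ran from 269 to 297, from 258 to 331 and from 290 to 331. Every knockdown overlapped with the controls. The log2 differences of imd lay between -0.09 ± 0.05 under CycC dsRNA (95% interval -0.20 to 0.02, limma adjusted p = 0.218) and 0.01 ± 0.05 under Med13 dsRNA (95% interval -0.09 to 0.12, limma adjusted p = 0.885). Dredd (probe set 1639071_a_at), the gene of the caspase that acts on Imd and Relish, had controls of 335 to 397 with a median of 371. Its Cdk8 arrays read 359 and 407, and its CycC, Med12 and Med13 arrays ran from 340 to 363, from 369 to 423 and from 360 to 402. These groups again overlapped with the controls. The Dredd difference farthest from 0 was 0.10 ± 0.05 under Med12 dsRNA, with a 95% interval of -0.00096 to 0.21 and a limma adjusted p = 0.103. These intervals leave room for changes of up to about that size, so the data do not show that the transcripts were unchanged.

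**Figure D3:**
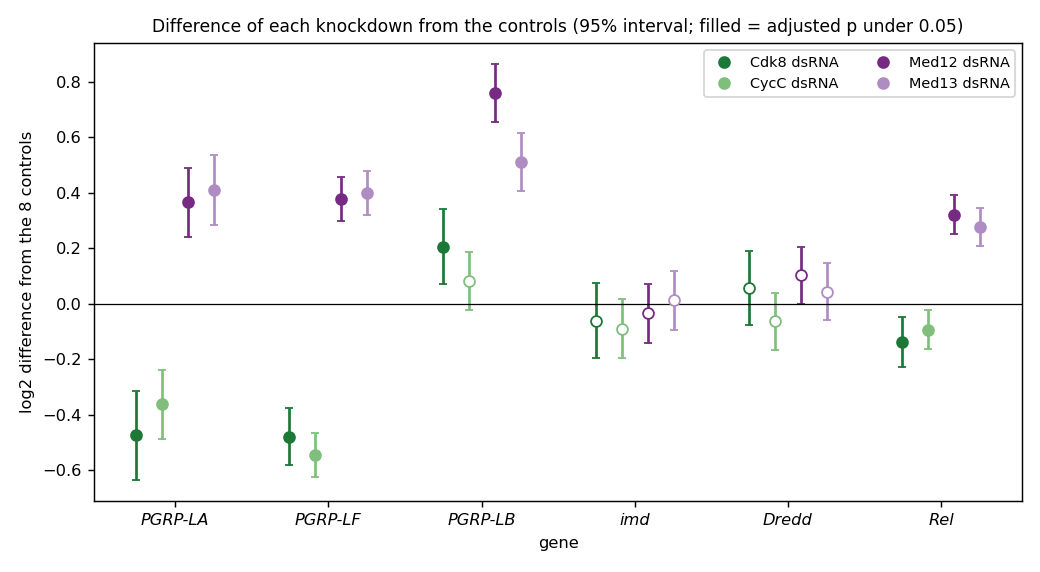
Each point is the log2 difference of a knockdown from the 8 controls, with its 95% interval from limma, and filled points passed an adjusted p of 0.05. PGRP-LA, PGRP-LF and Rel have points on either side of 0, PGRP-LB reaches 0.76 under Med12 dsRNA, and all points of imd and Dredd are open.

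Counted over the 6 measured members, 3 fell and 1 rose under Cdk8 dsRNA, where 18.7% of all genes tested were called, 8.07% lower and 10.6% higher. Under CycC dsRNA 3 fell and none rose, where 24.2% of all genes were called, 10.9% lower and 13.4% higher. At an unadjusted p under 0.05 the number of members was 3 here too, beside 35% of all genes. Under Med12 dsRNA 4 rose and none fell, where 41.9% of all genes were called, 26.5% higher and 15.5% lower. Under Med13 dsRNA 4 rose and none fell, where 32.2% were called, 21% higher and 11.2% lower. The arrays of a knockdown lay wholly outside the controls for 3 members under Cdk8 dsRNA, 3 under CycC, 4 under Med12 and 4 under Med13 dsRNA, against 26.2%, 14.3%, 24.3% and 17.3% of all genes. The median log2 difference of the members was -0.10, -0.09, 0.34 and 0.34 in the same order, beside 0.02, 0.01, 0.04 and 0.03 over all genes. With 6 genes chosen with earlier results known, these counts describe the members and test nothing about them as a set.

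Set directly against each other, the Med12-Med13 pair and the Cdk8-CycC pair differed in the same 4 members, in a contrast from which the controls drop out. The mean of the Med12 and Med13 groups exceeded the mean of the Cdk8 and CycC groups by 0.90 ± 0.04 on the log2 scale for PGRP-LF (1.87-fold, limma adjusted p = 1.94e-14). The difference was 0.81 ± 0.05 for PGRP-LA (1.75-fold, limma adjusted p = 1.34e-10), 0.49 ± 0.05 for PGRP-LB (1.41-fold, limma adjusted p = 2.12e-08) and 0.41 ± 0.03 for Rel (1.33-fold, limma adjusted p = 5.66e-10). In all 4 genes the 8 Med12 and Med13 arrays lay above the 6 Cdk8 and CycC arrays, as in 22.9% of all genes in either direction. This contrast called 49.1% of all genes, 26.9% higher and 22.2% lower in the Med12-Med13 pair, and this balance depended on the scaling: 1602 higher and 1326 lower became 1451 and 1574 after median centring and 1478 and 1529 after quantile normalization. For imd the difference was 0.06 ± 0.05 (limma adjusted p = 0.265) and for Dredd 0.08 ± 0.05 (limma adjusted p = 0.169). Over the 24 alternatives of each, the 4 calls were kept, with PGRP-LF between 0.88 and 0.92, PGRP-LA between 0.76 and 0.83, PGRP-LB between 0.43 and 0.55 and Rel between 0.38 and 0.45.

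Within the pairs few members differed. Between Med12 and Med13 dsRNA PGRP-LB was the 1 member called, higher with Med12 dsRNA by 0.25 ± 0.06 (limma adjusted p = 0.0392), and its 4 Med12 arrays lay above its 4 Med13 arrays, where 6.14% of all genes had arrays that did not overlap. In this comparison 0.872% of all genes were called, and the PGRP-LB call was lost in 9 of 18 alternatives, with limma adjusted p-values up to 0.141. PGRP-LF differed there by -0.02 ± 0.04 (95% interval -0.11 to 0.07), PGRP-LA by -0.04 ± 0.07 (95% interval -0.19 to 0.10) and Rel by 0.05 ± 0.04 (95% interval -0.04 to 0.13). Between Cdk8 and CycC dsRNA no member was called by limma, none passed at an unadjusted p of 0.05, and 0.101% of all genes were called. The difference was 0.07 ± 0.05 for PGRP-LF (95% interval -0.05 to 0.18) and -0.11 ± 0.08 for PGRP-LA (95% interval -0.29 to 0.06), whose 2 Cdk8 arrays both lay below the 4 CycC arrays, while 13.5% of all genes had arrays that did not overlap here.

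The order of the group means was therefore alike in PGRP-LF, PGRP-LA and Rel, with Med12 and Med13 at the top, Luc and GFP in the middle and the Cdk8-CycC pair, called the kinase pair from here on, at the bottom. In these 3 genes neighbours within each of the 3 sets overlapped, except that the Cdk8 and CycC arrays of PGRP-LA did not, and neighbours from different sets did not overlap. PGRP-LB ran from Med12 and Med13 through Cdk8, Luc and CycC down to GFP, and Cdk8, Luc and CycC overlapped with their neighbours among these 3. In imd and Dredd every neighbour in the order overlapped.

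The other listed genes of the PGRP family were too dim to follow. Of 9 listed, 4 had a probe set of their own, namely PGRP-LE, PGRP-SB1, PGRP-SB2 and PGRP-SC2, named after their values were seen, and their intensities of 4.20 to 14.5 lay below the floor on all 22 arrays.

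Among other signalling genes of the pathway, the genes of both IκB kinase subunits rose under Med12 and Med13 dsRNA. Of 8 measured genes 3 rose and 1 fell under Med12 dsRNA, 3 rose and 1 fell under Med13 dsRNA, and 2 fell and none rose under each of Cdk8 and CycC dsRNA. The shares that rose and fell, 37.5% and 12.5% under each of Med12 and Med13 dsRNA, stood beside 26.5% and 15.5% of all genes under Med12 dsRNA and 21% and 11.2% under Med13 dsRNA, and the 25% that fell under Cdk8 and CycC dsRNA beside 8.07% and 10.9%. These counts describe the list and test nothing about it. The kinase subunit gene IKKbeta rose by 0.14 ± 0.03 under Med12 dsRNA (limma adjusted p = 0.00138) and by 0.22 ± 0.03 under Med13 dsRNA (limma adjusted p = 3.23e-05). Its partner key rose by 0.20 ± 0.03 and 0.18 ± 0.03. Diap2, which encodes a ubiquitin ligase acting on Imd and Dredd, rose by 0.23 ± 0.04 and 0.15 ± 0.04. Fadd, which encodes the adaptor that joins Imd to Dredd, fell under Cdk8 dsRNA (-0.19 ± 0.05, limma adjusted p = 0.0204) and CycC dsRNA (-0.14 ± 0.04, limma adjusted p = 0.0201) and stood at 0.07 ± 0.04 under each of Med12 and Med13 dsRNA. The remaining falls, 1 in each knockdown, were all in Tab2, which encodes the partner of Tak1 and was named after its values were seen. Tab2 fell by 0.19 ± 0.06 on the log2 scale under Cdk8 dsRNA (limma adjusted p = 0.0338), 0.14 ± 0.05 under CycC dsRNA, 0.24 ± 0.05 under Med12 dsRNA (limma adjusted p = 0.000326) and 0.17 ± 0.05 under Med13 dsRNA. Between the pairs 4 of the 8 were higher in the Med12-Med13 pair and none lower, beside 26.9% of all genes higher and 22.2% lower. The median log2 difference of the list was 0.11 beside 0.01 over all genes.

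Of 6 measured inhibitors of the pathway, 2 rose under Med12 dsRNA and 1 under Med13 dsRNA, with none falling. Under Cdk8 dsRNA 1 rose and 1 fell, and under CycC dsRNA 1 fell. The 33.3% that rose under Med12 dsRNA stood beside 26.5% of all genes, and the 16.7% that rose under Med13 dsRNA beside 21%. In these knockdowns 15.5% and 11.2% of all genes fell. Under Cdk8 dsRNA the 16.7% that rose and the 16.7% that fell stood beside 10.6% and 8.07%. The 16.7% that fell under CycC dsRNA stood beside 10.9%. The fall under CycC dsRNA was in pirk, whose product blocks PGRP-LC at the membrane (-0.39 ± 0.08, limma adjusted p = 0.00105). CYLD, a deubiquitinase gene, fell under Cdk8 dsRNA (-0.25 ± 0.08, limma adjusted p = 0.0293) and was higher in the Med12-Med13 pair than in the kinase pair by 0.34 ± 0.06. The gene casp, which encodes the inhibitor Caspar, rose under Med12 dsRNA (0.15 ± 0.05) and Med13 dsRNA (0.13 ± 0.05). The other rise under Med12 dsRNA was in the deubiquitinase gene trbd, named after its value was seen (0.15 ± 0.06, limma adjusted p = 0.047). The deubiquitinase gene scny rose under Cdk8 dsRNA (0.18 ± 0.06, limma adjusted p = 0.0404). Between the pairs 2 of the 6 were higher in the Med12-Med13 pair, CYLD and pirk (0.24 ± 0.07), and 1, scny, was lower (-0.18 ± 0.04). Of all genes 26.9% were higher there and 22.2% lower.

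A JNK branch splits off below Tak1. Of 7 measured genes listed for JNK signalling, not all of which need act below Tak1, 2 rose and 2 fell under Med12 dsRNA. These shares, 28.6% each, stood beside 26.5% and 15.5% of all genes. Under Med13 dsRNA 1 rose and 2 fell (14.3% and 28.6%, beside 21% and 11.2% of all genes). Under Cdk8 dsRNA 1 fell (14.3% beside 8.07%) and under CycC dsRNA 2 fell (28.6% beside 10.9%), with none rising in either. The kinase gene msn fell under Med12 (-0.42 ± 0.05) and Med13 dsRNA (-0.29 ± 0.05), and bsk, the JNK gene itself, rose (0.17 ± 0.03 and 0.13 ± 0.03). The phosphatase gene puc, which limits JNK and is a target of it, fell under Cdk8 (-0.26 ± 0.06), CycC (-0.23 ± 0.05) and Med13 dsRNA (-0.21 ± 0.05) and stood at -0.11 ± 0.05 under Med12 dsRNA (limma adjusted p = 0.0545). The AP-1 subunit gene kay fell under Med12 dsRNA (-0.16 ± 0.06, limma adjusted p = 0.0448). The second gene that rose under Med12 dsRNA was Mkk4, which encodes a kinase that activates JNK and was named after its value was seen (0.12 ± 0.05, limma adjusted p = 0.0452). The other fall under CycC dsRNA was in Jra, also named after its value was seen (-0.11 ± 0.04, limma adjusted p = 0.034). Between the pairs 1 gene, Jra, was higher in the Med12-Med13 pair (0.15 ± 0.03). There 2 were lower, msn (-0.37 ± 0.04) and kay (-0.31 ± 0.06), beside 26.9% of all genes higher and 22.2% lower.

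In the Toll pathway, the other NF-κB route, none of 9 measured genes was called by limma under Cdk8 dsRNA and 1 under CycC dsRNA, where the receptor gene Tl fell (-0.43 ± 0.08, limma adjusted p = 0.000333). The share of all genes called was 18.7% under Cdk8 dsRNA and 24.2% under CycC dsRNA. Under Med12 dsRNA 2 rose and 2 fell, 22.2% each beside 26.5% and 15.5% of all genes. Under Med13 dsRNA 1 rose and 3 fell, 11.1% and 33.3% beside 21% and 11.2% of all genes. The IκB gene cact rose by 0.13 ± 0.03 and 0.14 ± 0.03 in these knockdowns, the ligand gene spz fell under Med12 dsRNA (-0.24 ± 0.04) and Pli, the fly Pellino gene, fell under Med13 dsRNA (-0.39 ± 0.06). The remaining calls were in genes named after their values were seen: the adaptor gene Myd88 fell under both (-0.16 ± 0.04 each), dl, the NF-κB gene dorsal, fell under Med13 dsRNA (-0.25 ± 0.07), and the adaptor gene tub rose under Med12 dsRNA (0.12 ± 0.03).

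Of 15 peptide genes listed downstream of the NF-κB factors, 7 had a probe set of their own and 6 were over the floor. The others were not measured here, so the counts below cover only part of the list. All 6 measured genes fell under Cdk8 and under CycC dsRNA. The share of all genes that fell was 8.07% and 10.9%. Under Med12 dsRNA 5 fell and 1 rose, and under Med13 dsRNA 4 fell and 1 rose, beside 15.5% and 11.2% of all genes that fell. The share of all genes that rose was 26.5% and 21%. Mtk, the metchnikowin gene, fell the most of the 6 in each knockdown, with log2 differences of -2.36 under Cdk8, -2.42 under CycC, -2.62 under Med12 and -3.25 under Med13 dsRNA, and the attacin gene AttD fell in all 4 by 0.82 to 1.12. Drs, the drosomycin gene, and the cecropin gene CecB, both named after their values were seen, fell in all 4 knockdowns, Drs by 0.54 to 1.05 and CecB by 0.40 to 0.46 on the log2 scale. DptB, a diptericin gene, fell under Cdk8 (-1.46 ± 0.11) and CycC dsRNA (-1.48 ± 0.08) and rose under Med12 (0.29 ± 0.08) and Med13 dsRNA (0.25 ± 0.08), and it was higher in the Med12-Med13 pair than in the kinase pair by 1.74 ± 0.07 (3.35-fold, limma adjusted p = 7.11e-14). The peptide gene edin fell under Cdk8 (-1.15 ± 0.08), CycC (-0.96 ± 0.06) and Med12 dsRNA (-0.22 ± 0.06), stood at 0.07 ± 0.06 under Med13 dsRNA and was higher in the Med12-Med13 pair by 0.98 ± 0.06. Mtk was lower in the Med12-Med13 pair by a log2 difference of -0.54 ± 0.17 (limma adjusted p = 0.0131), although the arrays of the pairs overlapped. The means of Mtk were log2 5.27 under Cdk8, 5.20 under CycC, 5.01 under Med12 and 4.37 under Med13 dsRNA, near the floor of log2 4. Its lowest array read 12.1, below the floor of 16, so the sizes of its differences are uncertain. AttD differed between the pairs by 0.04 ± 0.09 (limma adjusted p = 0.74).

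**Figure D4:**
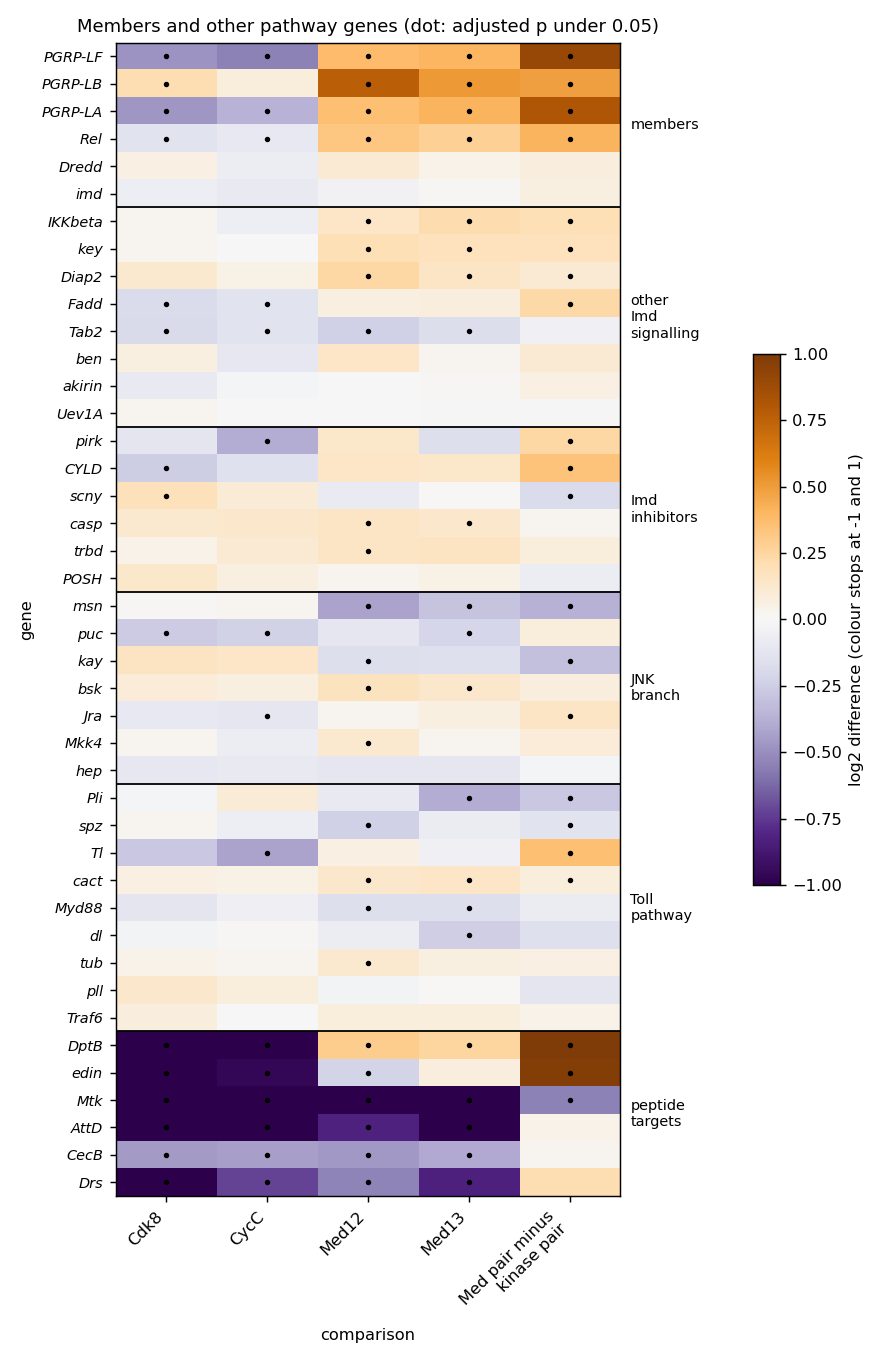
Rows are the 6 measured members and the measured genes of 5 lists, ordered within a list by the F-test over the 4 knockdowns, columns are the 4 knockdowns against controls and the contrast of the pairs (kinase pair: Cdk8 and CycC), colour is the log2 difference and a dot marks an adjusted p under 0.05. The colour stops at -1 and 1, which 5 peptide genes (Mtk, DptB, edin, AttD and Drs) exceed in at least 1 column.

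The genes whose log2 values over the 22 arrays were most like those of each member were found by Pearson's correlation, given as a description, since arrays of a group share their dsRNA and the groups lie apart. For PGRP-LF these were hdly (r = 0.987), Ppt1, a lysosomal thioesterase gene (r = 0.984), and wdp (r = 0.982). For PGRP-LA they were CG31673 (r = 0.973), GNBP3, whose product recognises fungal glucan and feeds the Toll pathway (r = 0.971), and GstE2, a glutathione transferase gene (r = 0.971). GNBP3 stood 1.09 higher on the log2 scale in the Med12-Med13 pair than in the kinase pair, beside 0.81 for PGRP-LA. PGRP-LB was most like EndoU (r = 0.945), Epac, a cAMP-regulated exchange factor gene (r = 0.944), and CG5335 (r = 0.936), of which Epac rose by 1.95 under Med12 dsRNA and 1.44 under Med13 dsRNA. Rel was most like CG5390 (r = 0.973), CG16888 (r = 0.973) and the cytochrome P450 gene Cyp9f2 (r = 0.971). The best matches were weaker for imd (mRpL27, tex and Pgls, r = 0.745 to 0.706) and for Dredd (Panx, Gapdh1 and CG2608, r = 0.736 to 0.715).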

How the data were processed

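Per the labels' protocols, 4 µg of total S2 cell RNA per sample was turned into biotin-labelled cRNA. The authors deposited 1 intensity per probe set and array, made with GCRMA per the submitters' processing notes, a method that corrects background by probe base composition, normalizes arrays to one another and summarises each set. Its version and settings: not given in the sources used here. As deposited, the intensity values were linear (2.02 to 70939), and their log2 was taken. GCRMA pulls dim values together, and its normalization hides a change shared by all transcripts. Arrays carry no depth: their number limits the precision.

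Of 18952 probe sets, 183 controls were left out, 13647 had 1 gene symbol, 402 several and 4720 none here. Of the symbols, 13544 matched RefSeq's gene table by identifier. Probe sets at log2 4 or more on at least 2 arrays were kept, with the brightest set per gene, giving 5961 genes. Groups came from the sample titles. All 22 arrays entered 1 fit in limma 3.58.1 (R 4.3.3), with a mean for each group and 16 residual degrees of freedom, two-sided tests and Benjamini-Hochberg adjustment over all genes. The self-test on simulated data of 5961 genes recovered 64.2% of changes of 0.25 on the log2 scale in the Cdk8 comparison and 88.1% in the Med12 comparison.

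The members and gene lists were chosen with earlier results of these data known. The text names the 8 members, the 4 dsRNA targets, from each list at most the 4 measured genes with the smallest F-test p over the knockdowns, and for each member the 3 most correlated genes. Genes named beyond this rule are neighbours of members and further genes behind small counts, marked in the text as named after their values were seen. Alternatives covered the floor, scaling, offset, probe set choice, variance model, controls, replicate block and each array left out. A planned description of promoters and proteins was not made, as no sequence was used here.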

Additional observations from a re-analysis of the deposited data

Results flagged for a closer look

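In 30 groups of 4 arrays (6 members in 5 groups), 1 array stood apart by Dixon's test at the 95% level. Chance picks out about 1 group in 20. For imd the second GFP array read 331 against 303 to 307 for the other 3, a gap of 0.842 of the group's range. Without that array imd was again not called in any knockdown.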

How the results depend on the processing

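Under Med12 and Med13 dsRNA and in the contrast of the pairs, PGRP-LF, PGRP-LA, PGRP-LB and Rel kept direction and call in all 24 alternatives, as PGRP-LF and PGRP-LA did in the 22 of the Cdk8 and the 24 of the CycC comparison. The count of 4 members changed under Cdk8 dsRNA was 2 with only the compared groups in the fit and ran from 2 to 4 with an array left out. Under CycC dsRNA the count of 3 ran from 2 to 3. The count of 1 between Med12 and Med13 dsRNA was 0 without a floor and 0 with a trended, robust variance, and ran from 0 to 1 with an array left out. Without the third Med12 array imd passed between the pairs (0.10, limma adjusted p = 0.0456), making 5 members.

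Signs turned in 9 cases, none of them a called difference. Against Luc alone PGRP-LB under CycC dsRNA was -0.042 and imd under Med12 dsRNA 0.0070. For imd under Med13 dsRNA the difference was -0.020 after median centring, -0.035 after quantile normalization and -0.031 against GFP alone, and Dredd under Med13 dsRNA was -0.0021 after quantile normalization. With 1 array left out, Dredd under Cdk8 dsRNA ran from -0.036 to 0.147 and imd ran from -0.090 to 0.030 under Med12 dsRNA and from -0.027 to 0.035 under Med13 dsRNA. The cause was not tested.

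Arrays of different groups share replicate numbers, but of 50 same-numbered pairs 25 had correlated deviations (r over 0.1), so the numbers were not taken as pairs, which would need all of them over it. As a hint of shared variation from the data, the median r was 0.088 for same and -0.038 for other numbers, 12 of 22 arrays correlated best with an array of their own number, and the block raised the calls over all genes in every comparison (for Cdk8 dsRNA from 1113 to 1270). With the replicate block Rel under CycC dsRNA kept its difference of -0.09 at a limma adjusted p = 0.0524, so 2 members were called there in place of 3, and no other call of a member changed. Median centring moved the split of all calls under Med12 dsRNA from 1577 higher and 922 lower to 1331 and 1130, and under Med13 dsRNA from 1249 and 669 to 943 and 911. Signal over background was not the limit for the 6 members, the lowest array of which read 141.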
